A study of Homo sapiens with 6 samples.

Results

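Expression of 9 genes of the red cell programme was followed in Meg-01, a human megakaryoblastic leukaemia cell line: the alpha-globin genes HBA1 and HBA2, the embryonic globin genes HBZ and HBE1, the foetal gamma-globin genes HBG1 and HBG2, the haem synthesis gene ALAS2, the transcription factor gene KLF1 and the erythropoietin receptor gene EPOR. They were picked by symbol, and each had a row among the 58735 genes of the count table. Meg-01 cells were left without treatment (control, 3 libraries) or received 500 µM sodium propionate, the 3-carbon short-chain fatty acid abbreviated C3, for 48 h (3 libraries), and their RNA was sequenced. The time of the control libraries is not in the labels, and all libraries came from 1 cell line whose replicates the study describes as technical, so that p-values measure only the spread between these libraries. Library totals ranged from 16159449 to 22821722 counts.

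Haemoglobin is a tetramer of alpha-type chains, encoded on chromosome 16, and beta-type chains, encoded on chromosome 11, each chain carrying a haem group. During development embryonic chains give way to foetal and then adult chains, and butyrate and related short-chain fatty acids are known for raising gamma-globin in erythroid cells. Megakaryocytes and red cells arise from a shared progenitor, and megakaryoblastic lines often keep erythroid transcription factors such as GATA1 and KLF1.

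None of the 9 genes was a differentially expressed gene (DEG), defined as an edgeR adjusted p below 0.01 with a change of more than 1.3-fold in either direction. EPOR came nearest, 1.27-fold higher with C3 (95% interval 1.13 to 1.44). ALAS2 was 1.47-fold higher and HBA2 lay at 0.62 of its control level, both with adjusted p between the threshold of 0.01 and 0.05. The gamma-globin pair gave 9 counts in the control and 9 in the C3 libraries. Of the 9 genes, 5 (HBA1, HBA2, ALAS2, KLF1 and EPOR) reached 10 counts in at least 3 libraries and were tested, and HBZ, HBE1, HBG1 and HBG2 did not.

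Among all 15078 tested genes 761 (5.05%) were DEGs higher with C3 and 222 (1.47%) were DEGs lower. With library size alone as the scaling these became 1024 and 101, so the share of higher calls rests in part on the scaling. For the 5 tested members the count was 0 in both directions by edgeR, 0 by DESeq2 and 0 by limma-voom, while 2 were higher and 1 lower at an unadjusted edgeR p below 0.05. Of all tested genes 16.8% were higher and 15.3% lower at that threshold, so that 5 genes are too few to set apart from this background. Groups did not overlap, with C3 higher, for 3 of them (EPOR, ALAS2 and KLF1), against 17.5% of all tested genes, and with C3 lower for 1 (HBA2), against 16.9%. In bulk RNA, fewer cells of a type and less RNA per cell cannot be told apart.

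**Figure D1:**
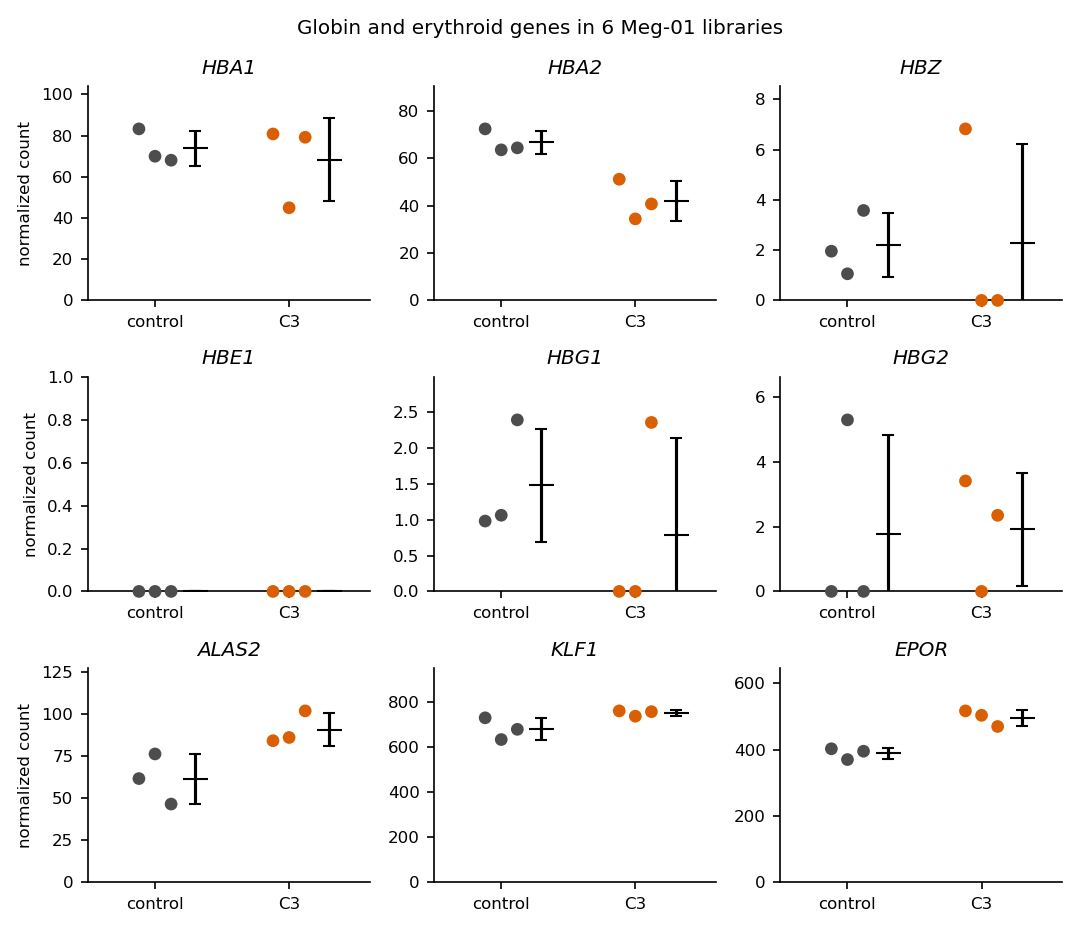
Normalized count (y axes, linear and each on its own scale) of the 9 genes in the 3 control (grey) and 3 C3 (orange) Meg-01 libraries, with the mean and SD (n = 3) beside the points. EPOR, ALAS2 and KLF1 were higher in every C3 library than in every control library, HBA2 was lower, and HBZ, HBE1, HBG1 and HBG2 were at or close to 0.

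Promoters in the RefSeq promoter table (GRCh38.p14) were found for 3 of the 9 genes, EPOR, KLF1 and ALAS2, and were not found for HBA1, HBA2, HBZ, HBE1, HBG1 and HBG2. These 3, the members with an entry, are shown because erythroid promoters are read by GATA1, which binds GATA motifs, and by KLF1, which binds CACCC motifs. Each sequence runs 5′ to 3′ from 250 bases before the start site to 50 bases from it on, with GATAA and CACCC matches on either strand (TTATC and GGGTG on the other strand) in capitals.
EPOR, chr19:11384265-11384564, minus strand: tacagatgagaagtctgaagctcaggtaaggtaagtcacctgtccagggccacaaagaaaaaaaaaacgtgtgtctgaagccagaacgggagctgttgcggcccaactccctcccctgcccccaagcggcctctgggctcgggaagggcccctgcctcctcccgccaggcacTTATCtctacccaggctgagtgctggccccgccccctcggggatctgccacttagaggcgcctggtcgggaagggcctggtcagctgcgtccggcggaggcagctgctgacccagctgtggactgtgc
KLF1, chr19:12887152-12887451, minus strand: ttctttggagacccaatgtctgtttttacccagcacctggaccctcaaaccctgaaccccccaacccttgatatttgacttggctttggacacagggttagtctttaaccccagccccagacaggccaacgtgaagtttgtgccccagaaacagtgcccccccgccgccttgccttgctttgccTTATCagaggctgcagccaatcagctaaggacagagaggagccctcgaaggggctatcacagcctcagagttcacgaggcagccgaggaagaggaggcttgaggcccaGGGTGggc
ALAS2, chrX:55030928-55031227, minus strand: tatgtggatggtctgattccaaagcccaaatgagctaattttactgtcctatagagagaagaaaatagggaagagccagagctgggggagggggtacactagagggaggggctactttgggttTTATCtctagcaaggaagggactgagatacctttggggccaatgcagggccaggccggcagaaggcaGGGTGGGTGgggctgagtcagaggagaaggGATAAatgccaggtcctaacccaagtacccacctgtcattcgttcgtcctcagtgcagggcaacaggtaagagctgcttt

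All 3 promoters held GATAA, which occurred in 22.7% of the 35116 promoters of the table. The EPOR match lay at -78 to -74 and the KLF1 match at -66 to -62, counting the start site as 0. ALAS2 had 2 matches, at -127 to -123 and at -30 to -26. CACCC occurred in 59.9% of all promoters. ALAS2 held 2 overlapping CACCC matches between -60 and -52, KLF1 held 1 at 42 to 46, and EPOR held none in this window. Of the other motifs searched on both strands, CCAAT (34.6% of all promoters) had 2 matches in KLF1 and 1 in ALAS2. CCGCCC (45.0%) and TGACCA (10.7%) each had 1 match in EPOR, and TATAAA (11.5%) had none in any of the 3. These matches are letters in a window and were not tested as binding sites.

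EPOR (ENSG00000187266, chromosome 19, 11377207 to 11384342, minus strand) encodes the receptor through which erythropoietin keeps erythroid progenitors alive. Its normalized counts were 403, 370 and 395 in the control libraries and 517, 503 and 470 in the C3 libraries. Every C3 library was above every control library, and the lowest C3 library was replicate 3. The means were 389 ± 17.1 and 497 ± 24.2 (SD, n = 3). The log2 fold change was 0.35 (SE 0.085, edgeR adjusted p = 0.0046). The p threshold was therefore met and the 1.3-fold threshold, 0.38 on the log2 scale, was not. Without C3 replicate 3 the log2 fold change was 0.39 and with library size alone 0.42, and both then counted as a DEG, whereas DESeq2 gave an adjusted p of 0.014 and no call. The exact two-sided permutation test of 3 against 3 libraries gave its smallest possible p of 0.1 for EPOR, as it did for ALAS2, HBA2 and KLF1.

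ALAS2 (ENSG00000158578, chromosome X, 55009055 to 55030977, minus strand) encodes the erythroid form of 5-aminolevulinate synthase, the first enzyme of haem synthesis. Its normalized counts were 61.7, 76.4 and 46.6 in the control and 84.2, 86.1 and 102 in the C3 libraries. The groups did not overlap, the lowest value being control replicate 3 and the highest C3 replicate 3. The log2 fold change was 0.56 (SE 0.19, 95% interval 0.17 to 0.95, edgeR adjusted p = 0.037), and over the alternatives the adjusted p ran from 0.018 to 0.20. ALAS1, the form of the same enzyme found in all tissues, had 1840, 1843 and 1778 normalized counts in the control and 1581, 1428 and 1559 in the C3 libraries. All 3 C3 libraries were below the controls for ALAS1, with a log2 fold change of -0.26 (edgeR adjusted p = 0.0051), short of the fold threshold. Within a library, where scaling cancels, the log2 ratio of ALAS2 to ALAS1 counts was -4.92 ± 0.33 in control and -4.07 ± 0.15 with C3 (SD, n = 3), a difference of 0.84 with no overlap (exact permutation p = 0.1). ALAS1 thus gave the larger count in all 6 libraries.

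KLF1 (ENSG00000105610, chromosome 19, 12884422 to 12887201, minus strand) encodes an erythroid zinc finger factor that activates adult beta-globin and many other red cell genes. Normalized counts were 732, 635 and 681 in the control and 763, 739 and 759 in the C3 libraries. The 3 C3 libraries lay close together just above control replicate 1, the highest control. The log2 fold change was 0.14 (SE 0.074, 95% interval -0.011 to 0.29, edgeR adjusted p = 0.19). It was 0.064 in the fit with a GC correction and the replicate block, and no alternative called it. The log2 ratio of EPOR to KLF1 within libraries was -0.81 ± 0.046 in control and -0.60 ± 0.078 with C3 (SD, n = 3). The ratio of EPOR to GATA1, the master factor of both lineages, was -2.22 ± 0.10 and -1.90 ± 0.037 on the same scale. Neither ratio overlapped between groups (exact permutation p = 0.1 for each), while that of KLF1 to GATA1 differed by 0.12 with overlap (exact permutation p = 0.2).

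HBA2 (ENSG00000188536, chromosome 16, 172876 to 173710, plus strand) and HBA1 (ENSG00000206172, chromosome 16, 176680 to 177522, plus strand) encode the same adult alpha-globin chain. HBA2 had 72.5, 63.6 and 64.5 normalized counts in the control and 51.2, 34.5 and 40.8 in the C3 libraries. HBA1 had 83.3, 70.0 and 68.1 in the control and 80.8, 45.0 and 79.2 in the C3 libraries. For HBA2 the groups did not overlap, while for HBA1 C3 replicate 2 lay below all controls and the other C3 libraries lay among them. The log2 fold change was -0.68 for HBA2 (SE 0.21, 95% interval -1.12 to -0.24, edgeR adjusted p = 0.024) and -0.12 for HBA1 (SE 0.21, 95% interval -0.54 to 0.31, edgeR adjusted p = 0.75). Without C3 replicate 2 the HBA1 value was 0.11. With a correction for GC content the HBA2 value was -0.77 (edgeR adjusted p = 0.0070), a DEG, and without C3 replicate 2 it was -0.56 (edgeR adjusted p = 0.12). Of the 100-base windows of the HBA2 transcript 79.9% occur unchanged in HBA1, and how reads matching both copies were counted is not stated in the sources used here, so the split between the copies is uncertain. The log2 ratio of HBA1 to HBA2 was 0.14 ± 0.061 in control and 0.67 ± 0.29 with C3 (SD, n = 3), without overlap (exact permutation p = 0.1). Summed to 1 row, the alpha pair had 159, 126 and 111 counts in the control and 116, 83 and 153 in the C3 libraries, and its log2 fold change was -0.36 (SE 0.16, edgeR adjusted p = 0.13). Opposite-strand transcripts cover 21.3% of the HBA1 and 19.2% of the HBA2 exon bases, and without a stated strand setting their reads cannot be told apart.

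**Figure D2:**
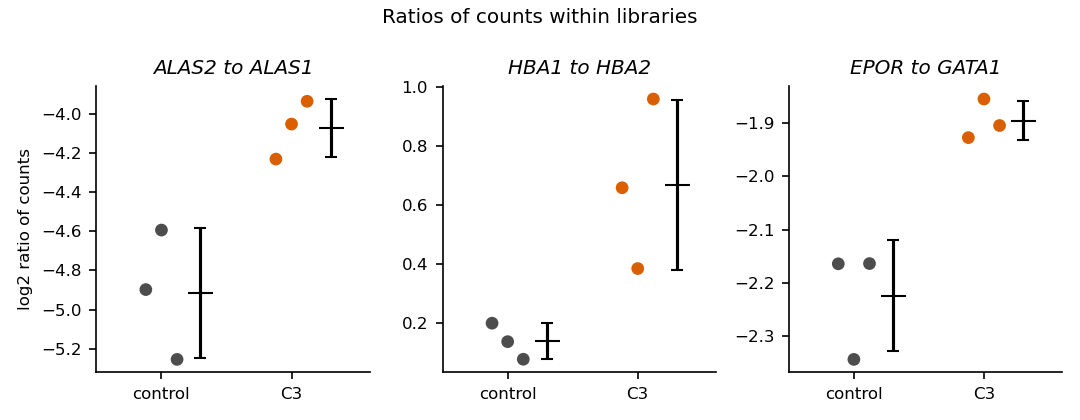
Log2 ratio of counts within each library (y axes, each on its own scale) for ALAS2 to ALAS1, HBA1 to HBA2 and EPOR to GATA1 in control (grey) and C3 (orange) libraries, with the mean and SD (n = 3). In each panel all 3 C3 libraries were above all 3 control libraries, with mean differences of 0.84, 0.53 and 0.33. Ratios whose groups overlapped are not shown: KLF1 to GATA1 (difference 0.12, exact permutation p = 0.2) and HBD to HBA1 (difference 0.15, exact permutation p = 0.7).

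The foetal genes HBG1 (ENSG00000213934, chromosome 11, 5248269 to 5249857, minus strand) and HBG2 (ENSG00000196565, chromosome 11, 5253188 to 5505605, minus strand) encode gamma-globin, the beta-type chain of foetal haemoglobin. HBG1 had 1, 1 and 2 counts in the control and 0, 0 and 3 in the C3 libraries. HBG2 had 0, 5 and 0 counts in the control and 3, 0 and 3 in the C3 libraries. The groups overlapped for both genes. The control total of HBG2 was 0.093 CPM (counts per 1000000 in the libraries; exact Poisson 95% interval 0.030 to 0.22) and the C3 total was 0.10 CPM (0.038 to 0.23). For HBG1 these were 0.075 CPM (0.020 to 0.19) and 0.052 CPM (0.011 to 0.15). A difference within these intervals, which cover counting error only, was not detectable at this depth. Fitted without the count filter, edgeR gave adjusted p = 0.98 for HBG2 and 0.86 for HBG1.

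Low counts of the gamma-globin genes have a limit in the annotation. Other genes share 55.6% of the HBG2 and 14.9% of the HBG1 exon bases, and 54.0% of the 100-base windows of HBG2 occur in HBG1. A read-through gene across the pair, ENSG00000284931, was examined after the counts were seen and had 44, 66 and 44 counts in the control and 29, 71 and 81 in the C3 libraries. The groups overlapped, and the log2 fold change was 0.02 (SE 0.24, edgeR adjusted p = 0.97). HBG1, HBG2 and the read-through gene summed gave a log2 fold change of 0.0068 (95% interval -0.48 to 0.50, edgeR adjusted p = 0.99).

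The embryonic genes were at the same low level. HBZ (ENSG00000130656, chromosome 16, 142728 to 154503, plus strand), which encodes the embryonic alpha-type chain zeta, had 2, 1 and 3 counts in the control and 6, 0 and 0 in the C3 libraries. All C3 counts came from replicate 1, and the groups overlapped. The group levels were 0.11 CPM (0.041 to 0.24) and 0.10 CPM (0.038 to 0.23). HBE1 (ENSG00000213931, chromosome 11, 5268345 to 5505652, minus strand), which encodes the embryonic beta-type chain epsilon, was listed at 0 in all 6 libraries, which allows up to 0.056 CPM over the control and 0.052 CPM over the C3 libraries. These limits take 3 counts per group, a one-sided 95% limit, whereas the intervals of HBZ, HBG1 and HBG2 are two-sided. Other genes share 90.0% of the HBE1 exon bases. PRDX2, a peroxiredoxin made by most cells, was also listed at 0 or 1 in each library, so that a 0 in this table may not be an absence of RNA.

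Per length, in transcripts per 1000000 (TPM), the order of the mean levels over 6 libraries was KLF1 (86.3), EPOR (28.0), HBA1 (16.4), HBA2 (12.6), ALAS2 (7.28), HBG2 (0.42), HBZ (0.36), HBG1 (0.15) and HBE1 (0). The median tested gene had 12.9 TPM, and 87.6% of tested genes were at or below KLF1. KLF1 (73.1 to 97.5 TPM) and EPOR (22.3 to 33.8 TPM) did not overlap each other, nor did EPOR overlap HBA1 (11.1 to 19.7 TPM). HBA1 overlapped HBA2 (8.60 to 16.7 TPM), HBA2 overlapped ALAS2 (4.05 to 10.3 TPM), and HBG2, HBZ, HBG1 and HBE1 overlapped each other. With the longest transcript as length, KLF1 was at 62.2, EPOR at 25.7 and ALAS2 at 5.53 TPM. TPM served only for levels, since on this scale the median of all tested genes was 0.13 higher with C3 in log2 units, against 0.0021 in the edgeR fit.

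The other globin genes lay above or among the members. HBQ1, which encodes the alpha-type chain theta, was at 138 TPM. HBD, which encodes the minor adult beta-type chain delta, was at 41.3 TPM. HBA1 followed, and HBB, the main adult beta-type chain, was at 2.01 TPM and HBM at 0.036 TPM. The adult-type HBD thus exceeded HBB in every library, with 36.8 TPM or more against 2.35 TPM or less. Other genes, among them the pseudogene HBBP1 (64.6 TPM), share 7.64% of the HBD exon bases. The part of their reads in the HBD level was not tested.

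Among the 10 globin genes 5 were tested and 0 were DEGs by edgeR or DESeq2, with 1 higher and 1 lower at an unadjusted p below 0.05 (16.8% and 15.3% of all tested genes). HBQ1 had 328, 327 and 322 normalized counts in the control and 470, 401 and 401 in the C3 libraries. All C3 libraries were above the controls, with a log2 fold change of 0.37 (SE 0.093, edgeR adjusted p = 0.0051), just short of the fold threshold. It became a DEG in 4 of 15 alternatives, among them that without C3 replicate 2, where the globin list had 1 higher call. HBD had a log2 fold change of -0.0083 (SE 0.12) and HBB of -0.069 (SE 0.39), with overlapping groups. The median log2 fold change of the tested globin genes was -0.07, beside 0.0021 for all tested genes.

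**Figure D3:**
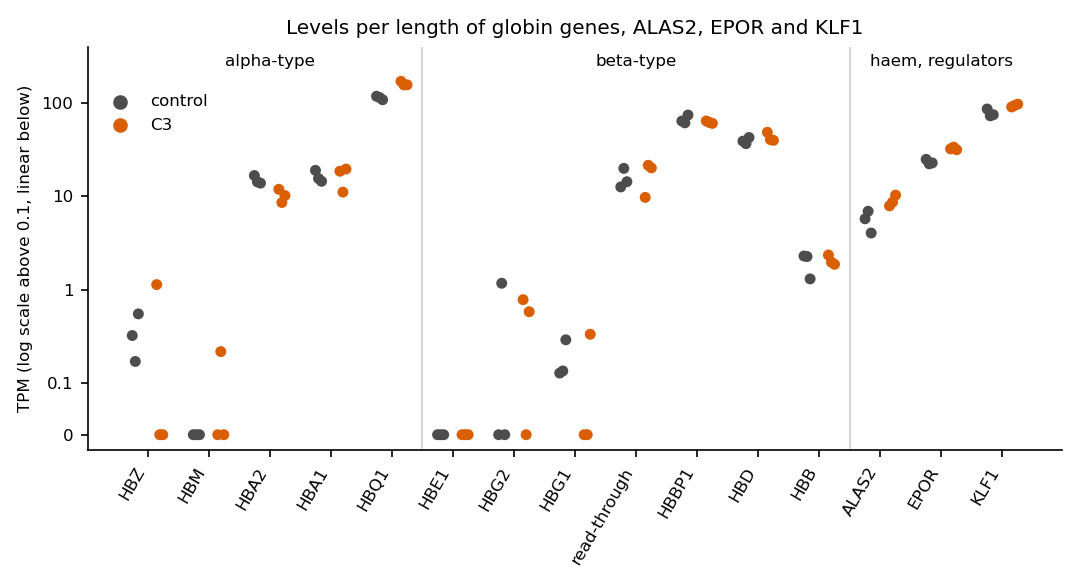
TPM (y axis, log scale above 0.1 and linear below) of the alpha-type and beta-type globin genes, the pseudogene HBBP1, the read-through gene across HBG2 and HBG1, ALAS2, EPOR and KLF1, each point 1 library (control grey, C3 orange). KLF1, HBQ1 and HBD were high, the alpha pair lay near the median tested gene of 12.9 TPM, and HBE1, HBG1, HBG2, HBZ and HBM were at or close to 0.

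Of 25 genes of haem synthesis and iron supply 23 were tested, with 1 DEG higher, 1 lower and a median log2 fold change of -0.06. Of all tested genes 5.05% were DEGs higher and 1.47% lower. At an unadjusted p below 0.05 there were 4 higher and 7 lower, against 16.8% and 15.3% of all tested genes. HMOX1, the haem oxygenase that breaks haem down, rose from 121 ± 5.76 to 198 ± 7.43 normalized counts (SD, n = 3), or by 0.71 on the log2 scale (edgeR adjusted p = 0.00025). TFR2, a second transferrin receptor that senses iron and binds EPOR, fell by 0.43 on the log2 scale (edgeR adjusted p = 0.00012), from 1939 ± 145 to 1445 ± 132. Its call was lost without control replicate 1 and with library size alone, which left the list with 0 lower calls. TFRC, the main transferrin receptor, had a log2 fold change of 0.01 with overlapping groups. AHSP, the chaperone of free alpha-globin, had 0 counts except in 1 C3 library and was not tested.

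Of 30 erythroid transcription regulators 29 were tested, with 1 DEG higher, 0 lower and a median of 0.01. The shares of DEGs among all tested genes were 5.05% and 1.47%. At an unadjusted p below 0.05 there were 4 higher and 2 lower, where the background was 16.8% and 15.3%. BCL11A, a repressor of the gamma-globin genes, had 375, 364 and 447 normalized counts in the control and 555, 627 and 568 in the C3 libraries. It rose by 0.57 on the log2 scale (SE 0.090, edgeR adjusted p = 5.97e-05) and was a DEG in all 15 alternative fits. ZBTB7A, another well-known gamma-globin repressor, had a log2 fold change of -0.04 with overlapping groups. GATA1 was at 0.02, also with overlap. GFI1B at 0.35 (edgeR adjusted p = 0.00033) and MYB at 0.28 (edgeR adjusted p = 0.0022) were higher in all C3 libraries and, like EPOR, short of the fold threshold. NFE2, a factor for platelet formation and globin expression, was at -0.378, within rounding of the threshold, and was a lower DEG by DESeq2 and limma-voom. It was also called without control replicate 3 or without C3 replicate 1, so that the list then had 1 lower call. Without C3 replicate 3 the list had 2 higher calls.

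All 25 genes of erythropoietin receptor signalling were tested and 0 were DEGs by edgeR or DESeq2, with 7 higher and 4 lower at an unadjusted p below 0.05, against 16.8% and 15.3% of all tested genes, and a median of -6.0e-05. JAK2, the kinase bound to the receptor, had a log2 fold change of -0.04 with overlapping groups. STAT5A and STAT5B, the factors it activates, were at -0.22 and -0.16. CISH, a feedback inhibitor that STAT5 induces, was at -0.27 (edgeR adjusted p = 0.0052), whereas the related inhibitors SOCS1 and SOCS3 were at 0.32 (edgeR adjusted p = 0.0068) and 0.31 (edgeR adjusted p = 0.025). PIM1, a kinase that STAT5 also induces, was at 0.24 (edgeR adjusted p = 0.0062). None of these reached 1.3-fold. Without C3 replicate 3 the list had 2 higher calls.

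Of 37 red cell membrane and enzyme genes 32 were tested, with 6 DEGs higher, 0 lower and a median of 0.15. The background of DEGs was 5.05% and 1.47%. At an unadjusted p below 0.05 there were 11 higher and 7 lower (16.8% and 15.3% of all tested genes), and 14 of the 32 had a negative log2 fold change. The 3 with the smallest p were BCAM, TMCC2 and AQP1. BCAM, the Lutheran blood group antigen, rose from 978 ± 76.4 to 1425 ± 42.7 normalized counts, and AQP1, the water channel of the red cell, from 57.7 ± 10.3 to 119 ± 13 (SD, n = 3). Their log2 fold changes were 0.54 and 1.04, that of TMCC2 was 0.57, and these 3 were DEGs in all 15 alternatives. The others were SPTB, the erythroid beta-spectrin (0.51), CA1, a red cell carbonic anhydrase (0.40), and HEMGN, an erythroid nuclear protein (0.84). DESeq2 called 3 higher and 0 lower, without SPTB, CA1 and HEMGN, and limma-voom called 5 higher, without SPTB. Over all alternatives these ran down to 0.39, 0.34 and 0.68, and the calls were lost for SPTB without any library but C3 replicate 2, for CA1 without control replicate 1 or 2 or C3 replicate 2, and for HEMGN without control replicate 1 or 3 or C3 replicate 3. The largest log2 fold change shown was that of ACKR1, the Duffy blood group antigen, at 1.32 (SE 0.42, edgeR adjusted p = 0.026), which was not called and had at most 20.5 normalized counts. ACKR1 had 0.63 to 1.46 TPM in the control and 2.77 to 2.93 TPM in the C3 libraries, so it met the count filter largely through the C3 libraries. RHAG, the Rh-associated glycoprotein and the highest of the list per length (1219 TPM), was lower in all C3 libraries at -0.17 (edgeR adjusted p = 0.058), as were SLC2A1, the glucose transporter, at -0.20 (edgeR adjusted p = 0.021) and ERMAP, an erythroid membrane protein, at -0.32 (edgeR adjusted p = 0.048), and none of these was called. SLC4A1, the band 3 anion exchanger, had a log2 fold change of 0.02 with overlapping groups.

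**Figure D4:**
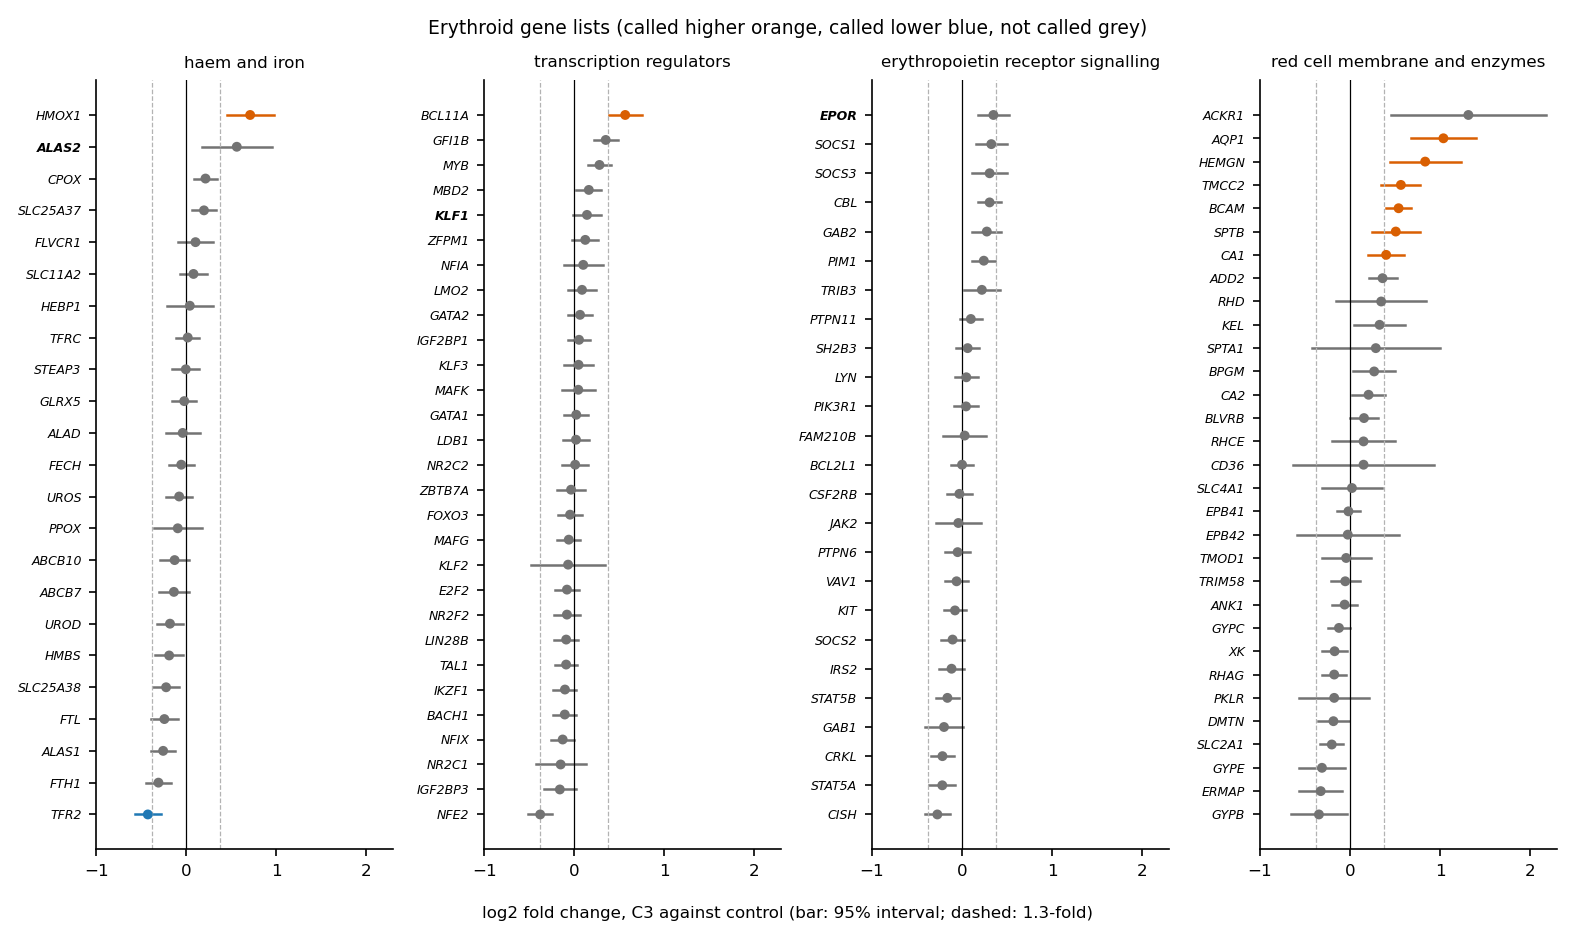
Log2 fold change, C3 against control (x axis), with 95% intervals for the tested genes of 4 erythroid lists, except 1 red cell gene not shown; DEGs higher are orange, DEGs lower blue, the dashed lines mark 1.3-fold and ALAS2, KLF1 and EPOR are in bold. The DEGs were 6 red cell genes, BCL11A and HMOX1 (higher) and TFR2 (lower), and no gene of erythropoietin receptor signalling was among them.

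The identity of the cells was checked against 15 megakaryocyte markers. The highest per length were ITGA2B, the platelet integrin chain CD41 (429 TPM), GP6, the platelet collagen receptor (204 TPM), and GP1BA, a chain of the von Willebrand factor receptor (170 TPM). PF4 and GP1BB, which define late megakaryocytes, were listed at 0 in all libraries, and other genes share 52.1% of the PF4 exon bases and every exon base of GP1BB. Of the 12 tested, THBS1 rose by 0.91 on the log2 scale, and GP1BA and TUBB1 fell by 0.49 and 1.36, beside 5.05% of all tested genes higher and 1.47% lower. The 12 split into 6 positive and 6 negative values, with 3 higher and 3 lower at an unadjusted p below 0.05 (16.8% and 15.3% of all tested genes). Leaving out control replicate 1 or C3 replicate 1 lost the TUBB1 call and left 1 lower. Of 15 markers of other blood cells 9 were tested. LYZ, a myeloid enzyme, fell by 0.51. TPSAB1, a mast cell tryptase, was called higher at 1.99 but had at most 15.9 normalized counts, and was no longer called without any of the 3 control libraries and too low to be tested without any of the 3 C3 libraries. TPSAB1 had 0.24 to 0.50 TPM in the control and 1.37 to 1.94 TPM in the C3 libraries. It thus passed the count filter only through the C3 libraries, and its call is no support for a change. Several of these markers were expressed: CD4 was at 207 TPM, CPA3, a mast cell protease, at 169 TPM, NKG7, a marker of cytotoxic cells, at 39.7 TPM and the B cell gene CD79A at 9.28 TPM (means of 6 libraries), while MS4A1, another B cell marker, was at 0. The part of these markers in the values of the 9 genes was not tested.

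By the smallest root-mean-square (RMS) difference of centred log2 CPM over the 6 libraries, among 11822 genes, the patterns nearest to KLF1 were those of DNMT3B (0.024), RCBTB2 (0.027) and SGO1 (0.032), where the median gene differed by 0.16. Those nearest to EPOR were DNAAF3 (0.030), JAG1 (0.031) and PECR (0.036), where the median was 0.22. The log2 fold changes of the 3 EPOR neighbours were 0.31, 0.32 and 0.36, beside 0.35 for EPOR, a likeness that follows from how they were chosen, since the 6 libraries include the group difference.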

How the data were processed

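Per the labels and the methods, RNA of 3 control and 3 C3 Meg-01 samples was sequenced. Per the submitters' processing notes, reads were trimmed with fastp, aligned to GRCh38 with STAR 2.6.1d and counted per gene with featureCounts 1.5.0-p3, and the authors deposited raw counts. The annotation release, the strand setting and the treatment of reads matching several places are not stated in the sources at hand. The members, gene lists and tests were chosen with earlier results of these data known, and the named genes are the 9 members, up to 3 DEGs per list and direction by smallest p, the 3 highest globin and megakaryocyte genes per length and the 3 nearest patterns of KLF1 and EPOR, with further list genes chosen after their values were seen.

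Genes that reached 10 counts in 3 or more libraries were tested with edgeR 4.0.16 in R 4.3.3 (quasi-likelihood, TMM scaling, Benjamini-Hochberg over all 15078 genes, group as the only term). Normalized counts are counts divided by TMM-scaled library size and brought to the mean library. Tested alternatives were DESeq2 1.42.0, limma-voom 3.58.1, other scalings and filters, a GC correction, the replicate number as a block, and leaving out each library. Fits were tested on simulated data, in which DESeq2 recovered fewer of the changed genes than edgeR or limma-voom. Those data had the same dispersion for every gene and only changes larger than 1.3-fold, unlike EPOR here. The seed of that check was changed and its pass mark lowered, and under the new seed DESeq2 would have missed the earlier mark. How far this bears on the DESeq2 counts of 0 in these data was not tested. The values of 1 red cell gene are not reported here, though the counts of its list include it. Coordinates and lengths came from GENCODE 44, matched for 58207 of 58735 identifiers. Library totals of 16159449 to 22821722 counts set the precision, and intervals and floors (3 counts) cover counting error only.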

Additional observations from a re-analysis of the deposited data

How the results depend on the processing

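Same-numbered deviations correlated at 0.13, -0.078 and 0.090, and those of different numbers between -0.20 and 0.16, so these correlations showed no pairing by replicate number. The replicate block gave 909 DEGs higher and 268 lower, against 761 and 222 without it. Whether the numbers mark paired samples was not tested. With the replicate block no member became a DEG, and EPOR was at 0.35, ALAS2 at 0.56, HBA2 at -0.67, HBA1 at -0.13 and KLF1 at 0.14 (log2 fold change). The 5 tested members kept their direction in all alternatives, except HBA1 without C3 replicate 2 (0.11, leave-one-out range -0.25 to 0.11, the cause was not tested). HBA2 was called with GC correction (-0.77) and with GC correction and replicate block (-0.77). EPOR was called with library size alone (0.42) and over the leave-one-out fits ran from 0.31 to 0.39, and an adjusted p below 0.05 with no fold gate called EPOR (0.35), ALAS2 (0.56) and HBA2 (-0.68).

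That looser gate gave 1658 DEGs higher and 1323 lower, and in the lists 1 and 1 (globins), 4 and 5 (haem), 3 and 1 (regulators), 6 and 3 (erythropoietin receptor signalling), 8 and 2 (red cell) and 2 and 2 (megakaryocyte). Library size alone gave 101 DEGs lower, 1 globin higher, 0 haem lower, 2 regulators higher and 4 signalling genes higher. Globins higher were 1 with no count filter and with a mean count of at least 50, and globins lower 1 with GC correction and 1 with GC correction and replicate block. Regulators lower were 1 by DESeq2, limma-voom and RLE factors. DESeq2 gave 3 red cell genes higher, megakaryocyte markers lower were 1 at a mean count of at least 50, and other blood cell markers higher were 0 by DESeq2, with no count filter, at that mean count and with GC correction and replicate block.

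Leaving out each library gave 129 (without C3 replicate 3) to 340 (without C3 replicate 1) DEGs lower and 516 to 766 higher. The list counts then ran from 0 to 1 (globins higher, haem lower, regulators lower, red cell lower, other blood cell higher), 1 to 2 (regulators higher, megakaryocyte lower) and 0 to 2 (signalling higher). The single lower red cell call was without C3 replicate 2. The causes were not tested. HBZ, HBG1 and HBG2 gave under 10 counts a library, so depth limits any statement on them, and HBE1 and HBM gave no test. Adding the read-through gene to the gamma pair, chosen after seeing the data, raised its counts to 32 to 87 a library, so that the C3 minus control differences of normalized counts, -0.54 and -0.92, have different bases. The fitted log2 fold change of that sum was 0.0068.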

Other observations

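Summed by locus, the 5 alpha-type globin genes had 496, 435 and 384 counts in the control and 535, 503 and 664 in the C3 libraries, or 469 ± 15.1 and 537 ± 65.3 normalized counts (SD, n = 3). The 5 beta-type genes had 264 ± 21.7 and 263 ± 41.5, and all 10 globin genes had 733 ± 18.7 and 800 ± 106. The 6 globin genes among the members had 146 ± 11.0 and 115 ± 32.4, and they took between 4.45 and 8.39 CPM of a library.

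HBBP1, a pseudogene of the beta-globin cluster examined after its counts were seen, had 151, 137 and 154 counts in the control and 129, 138 and 164 in the C3 libraries. Its log2 fold change was -0.23 (SE 0.14, edgeR adjusted p = 0.27), and the groups overlapped. Within libraries the log2 ratio of HBQ1 to HBD was 0.40 ± 0.16 in control and 0.79 ± 0.086 with C3 (SD, n = 3), without overlap (exact permutation p = 0.1, the smallest that 3 against 3 libraries allow).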
